A study of Mus musculus with 6 samples.

Results

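Accessible sites that were called in both genotypes but stood much earlier in the Bcl11b-deficient list of peaks than in the Bcl11b-sufficient list numbered 990 (3.75%) of the 26367 sites called in both lists on chromosomes 1 to 19. The sites come from an ATAC-seq study of mouse regulatory T cells (Treg cells), in which Tn5 transposase cuts and tags DNA where chromatin is open. The WT group held 3 samples of genotype Bcl11b w/w Foxp3-IRES-YFP-Cre and the KO group 3 samples of genotype Bcl11b f/f Foxp3-IRES-YFP-Cre, all on C57BL/6. All 6 samples were CD4+YFP+ cells sorted from spleen and draining lymph nodes, with 100000 cells lysed per sample, and no age or treatment other than genotype is given. The controls carry the same YFP-Cre as the KO group, expressed from Foxp3, so the floxed allele is a target of Cre in cells that express Foxp3, and the labels do not give the floxed part of Bcl11b.

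A site is a pair of overlapping peaks, 1 from each list (at least 1 bp, largest overlap kept). Each list of peaks belongs to a group of 3 samples together and has no peak height, so a peak was placed only by its rank, the row number as a percentage of all rows of its list, where a low percentage is an early row. The WT list has 38258 rows and the KO list 36182. Members are pairs whose WT rank minus KO rank is 25 percentage points or more, "higher in KO" below. Taking row order as peak strength is an inference from how the peaks are numbered, since no label says so, and ranks from lists of different length do not measure a change in accessibility. With no value per sample there is no replicate check and no test, and the depth behind a peak is unknown.

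Open chromatin in T cells lies at promoters, which are mostly shared between cell states, and at enhancers, which differ more between states and often lie within introns or between genes. Bcl11b encodes a zinc-finger transcription factor needed for commitment to the T cell lineage and known to restrain natural killer (NK) and innate lymphoid genes in T cells. Foxp3 encodes the factor that defines Treg cells, which suppress immune responses, while granzymes, Th1 and Th17 cytokines belong to effector and cytotoxic lymphocytes. Markers of CD4 T cells and Treg cells had shared pairs (1 each at Cd4, Cd3d, Cd3g and Foxp3, and 2 each at Cd3e and Tnfrsf18). These held 0 members, although a pair at Cd3e came close, with a difference of 24.5, and Foxp3, on chromosome X, lies outside the rule.

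Members overlapped promoters of 65 gene symbols of many functions, such as Bfsp2 and Lmna. Among these were genes for cytotoxic, inhibitory and cytokine functions, whose share of the 65 was not computed. The 250 bases before the transcription start are printed for 8 of the 65, 5′ to 3′ on the gene's strand. They come from the RefSeq promoter table of build GRCm38.p6, which shares its coordinates with mm10. Capitals mark the bases that lie under both the WT and the KO peak. Gzmb and Gzma encode granzymes, the proteases of cytotoxic granules, Havcr2 the inhibitory receptor TIM-3, and Il12rb2 the signalling chain of the IL-12 receptor. Il12a encodes the p35 subunit that IL-12 and the Treg cytokine IL-35 share, Nqo1 a quinone reductase, Mt1 a metallothionein, and Serpina3g a serine protease inhibitor. Gzmb, Havcr2 and Il12rb2 come from the naming rule, and the others were chosen after their values were seen.
Gzmb (chr14:56262335-56262584, strand minus): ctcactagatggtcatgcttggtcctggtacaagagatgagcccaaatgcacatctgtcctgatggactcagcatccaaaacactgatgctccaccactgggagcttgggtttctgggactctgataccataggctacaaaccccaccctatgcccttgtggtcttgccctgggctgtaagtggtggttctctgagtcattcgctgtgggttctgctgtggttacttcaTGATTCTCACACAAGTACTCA
Gzma (chr13:113100982-113101231, strand minus): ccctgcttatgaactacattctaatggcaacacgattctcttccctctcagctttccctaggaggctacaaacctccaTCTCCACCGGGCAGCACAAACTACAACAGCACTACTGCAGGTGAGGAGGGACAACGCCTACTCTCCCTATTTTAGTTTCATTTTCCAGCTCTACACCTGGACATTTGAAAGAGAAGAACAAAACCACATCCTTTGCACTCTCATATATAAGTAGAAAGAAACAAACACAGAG
Havcr2 (chr11:46454681-46454930, strand plus): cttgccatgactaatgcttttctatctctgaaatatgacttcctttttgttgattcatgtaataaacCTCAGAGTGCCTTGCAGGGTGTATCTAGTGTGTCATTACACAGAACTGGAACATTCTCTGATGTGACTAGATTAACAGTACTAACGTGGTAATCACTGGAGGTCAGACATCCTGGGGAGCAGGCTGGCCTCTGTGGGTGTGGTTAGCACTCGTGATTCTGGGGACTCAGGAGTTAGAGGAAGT
Il12rb2 (chr6:67376189-67376438, strand minus): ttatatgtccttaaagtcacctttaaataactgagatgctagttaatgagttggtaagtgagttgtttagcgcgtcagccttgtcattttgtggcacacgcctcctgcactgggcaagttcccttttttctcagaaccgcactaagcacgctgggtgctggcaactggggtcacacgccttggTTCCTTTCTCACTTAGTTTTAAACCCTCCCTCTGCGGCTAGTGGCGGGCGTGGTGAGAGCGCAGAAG
Il12a (chr3:68691174-68691423, strand plus): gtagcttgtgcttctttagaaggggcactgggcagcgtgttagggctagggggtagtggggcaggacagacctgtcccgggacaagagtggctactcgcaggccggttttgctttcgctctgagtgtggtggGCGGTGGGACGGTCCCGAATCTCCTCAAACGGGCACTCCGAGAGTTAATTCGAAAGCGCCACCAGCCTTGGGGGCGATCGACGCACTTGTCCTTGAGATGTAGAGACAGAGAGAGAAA
Nqo1 (chr8:107403206-107403455, strand minus): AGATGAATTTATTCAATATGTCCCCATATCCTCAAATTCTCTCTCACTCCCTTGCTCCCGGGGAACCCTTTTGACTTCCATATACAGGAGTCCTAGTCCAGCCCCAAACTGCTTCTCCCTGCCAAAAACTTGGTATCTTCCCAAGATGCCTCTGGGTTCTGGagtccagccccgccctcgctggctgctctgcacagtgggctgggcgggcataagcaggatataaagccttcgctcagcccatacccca
Mt1 (chr8:94178839-94179088, strand plus): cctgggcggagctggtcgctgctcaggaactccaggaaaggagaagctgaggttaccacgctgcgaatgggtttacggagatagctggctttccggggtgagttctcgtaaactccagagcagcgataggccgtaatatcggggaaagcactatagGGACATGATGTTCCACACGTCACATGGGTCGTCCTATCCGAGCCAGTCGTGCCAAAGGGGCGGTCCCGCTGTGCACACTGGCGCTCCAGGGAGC
Serpina3g (chr12:104235897-104236146, strand plus): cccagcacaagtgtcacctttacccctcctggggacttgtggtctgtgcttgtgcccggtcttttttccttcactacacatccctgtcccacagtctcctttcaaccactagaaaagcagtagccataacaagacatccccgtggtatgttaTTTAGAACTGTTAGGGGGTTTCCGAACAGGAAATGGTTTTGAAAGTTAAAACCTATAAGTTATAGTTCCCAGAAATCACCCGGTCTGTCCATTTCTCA
The pair at Gzmb had its middle 66 bases inside the gene and covered 21 of the printed bases, while the pair at Havcr2 lay 88 bases before the start and covered 183 of them. At Gzma the pair covered 172 bases, at Nqo1 162 and at Il12a 118. The pair at Serpina3g covered 98, the one at Mt1 94 and the one at Il12rb2 67. Serpina3g belongs to a cluster of near-identical genes, so its peak is uncertain.

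The members were chosen by rank, and their ranks are therefore given as a description. Pairs ranked 25 or more points lower in KO numbered 1723 (6.53%), more than the members. This order depended on the scale of the ranks: when only the paired peaks were ranked, so that both ranks ran over the same sites, 1319 pairs were higher in KO and 942 lower. Of the 990 members, 923 were kept on that scale. The median WT rank of members was 77.8 and their median KO rank 39.0, with differences of up to 79.0 and a median of 33.0. Most members thus moved between the late part of the WT list and the middle of the KO list: 888 stood past rank 50 in WT, 231 past rank 90, and 44 were in the first 10% of the KO list. The difference was 50 points or more at 106 members (10.7%). Among pairs lower in KO it was as large at 62 of 1723 (3.60%). These differences are the values that chose both classes, and the shares were not computed on the scale of paired peaks.

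**Figure D1:**
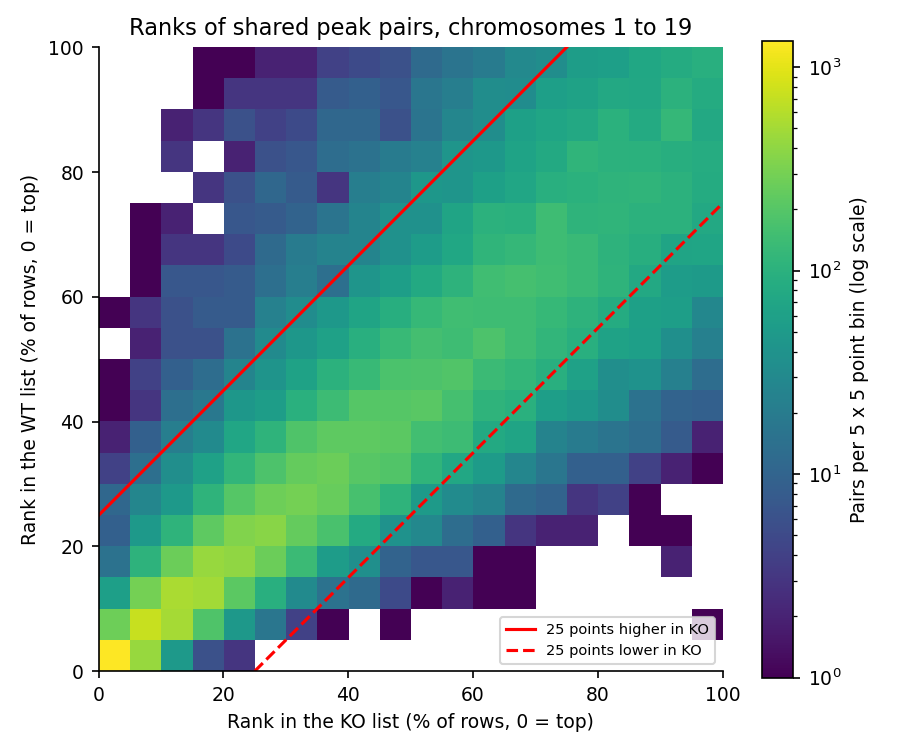
Shared pairs on chromosomes 1 to 19 by rank in the KO list (x axis) and in the WT list (y axis), both in percent of rows, with the number of pairs per bin on a log colour scale. The 990 members lie on or above the solid red line, most of them past WT rank 50, and the 1723 pairs lower in KO lie on or below the dashed line.

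The pairs nearest to the limit differed from each other by far less than the limit itself. Just inside it stood a pair between genes near Acod1 (WT rank 52.4, KO rank 27.4), a pair in the body of Cfap54 (79.4 and 54.3) and a pair near Tox2 (46.7 and 21.7). Just outside it stood pairs near Wfdc2 (50.9 and 25.9), near Maf (79.2 and 54.3) and in the body of Ppp2r2b (80.7 and 55.7). The differences were 25.001 to 25.013 inside the limit and 24.955 to 24.985 outside it.

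The largest differences lay mostly away from gene ends and at genes of varied function. The first was a pair 58.8 kb from Nfe2l2, the gene for the oxidative stress regulator NRF2, at rank 98.6 in WT and 19.5 in KO. It was followed by pairs at an end of Prss30, a serine protease gene (89.0 and 10.3), in the body of Dnaaf5, a dynein assembly gene (92.2 and 16.1), and at an end of Polr3b, an RNA polymerase III subunit gene (86.2 and 11.5). Next came pairs 79.2 kb from Trim52 (88.9 and 16.0) and in the body of Bfsp2, a lens filament gene (95.2 and 23.9). In all 6 the KO peak stood in the first 25% of its list and the WT peak past rank 80. A pair in the body of Grap2, which encodes the T cell adaptor GADS, stood at 98.3 and 26.9. The pairs at Trim52 and Grap2 overlapped by 75 and 92 bp and were not paired when an overlap of 50% was asked for. The others of the first 12 were at Slc38a2, Itpr2, Enah, Gabrr2 and Cdh17, with differences between 68.0 and 70.6. Bfsp2 and Cdh17 each had a pair of members and no other shared pair, with differences of 67.2 and 71.4 at Bfsp2 and of 34.0 and 68.0 at Cdh17.

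Position in the genome was not used by the rule. Members lay mainly in gene bodies and between genes: 106 of 990 (10.7%, 8.85 to 12.8%) had their middle no more than 1 kb from an end of a protein-coding gene, 483 (48.8%, 45.6 to 52.0%) were in gene bodies and 401 (40.5%, 37.4 to 43.6%) between genes. Of the other shared pairs, 35.5% were at gene ends (34.9 to 36.1%), 34.6% in gene bodies and 29.9% between genes. Pairs lower in KO were close to members, with 10.2%, 44.8% and 45.0%. Exons and introns were not analysed here.

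Since late rows hold few gene ends, the shares were also read within bands of the mean of both ranks. Between mean ranks 20 and 40, 7.45% of 161 members (3.91 to 12.7%) were at gene ends, against 41.8% of other pairs (40.6 to 43.1%). Between 40 and 60 the shares were 12.5% (9.26 to 16.5%) and 21.4% (20.3 to 22.6%). Between 60 and 80 they were 11.2% (8.35 to 14.7%) and 12.5% (11.6 to 13.5%). The intervals thus stood apart at mean ranks from 20 to 60 and overlapped from 60 to 80. Pairs lower in KO showed a like pattern, with 13.3%, 12.1% and 9.44%. In the first 25% of the KO list, where 63.8% of other pairs were at gene ends, 18 of 233 members were (7.73%, 4.64 to 11.9%). At KO ranks 25 to 50 the shares were 12.6% for members and 36.5% for other pairs, and at 50 to 75 they were 10.1% and 16.6%. Members and other pairs were not matched for rank inside these bands. In the last 25% of the WT list, which holds 546 members, the shares were 10.8% for members (8.33 to 13.7%) and 10.2% for other pairs. All intervals are exact and cover counting error only, and sites near each other are not independent.

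**Figure D2:**
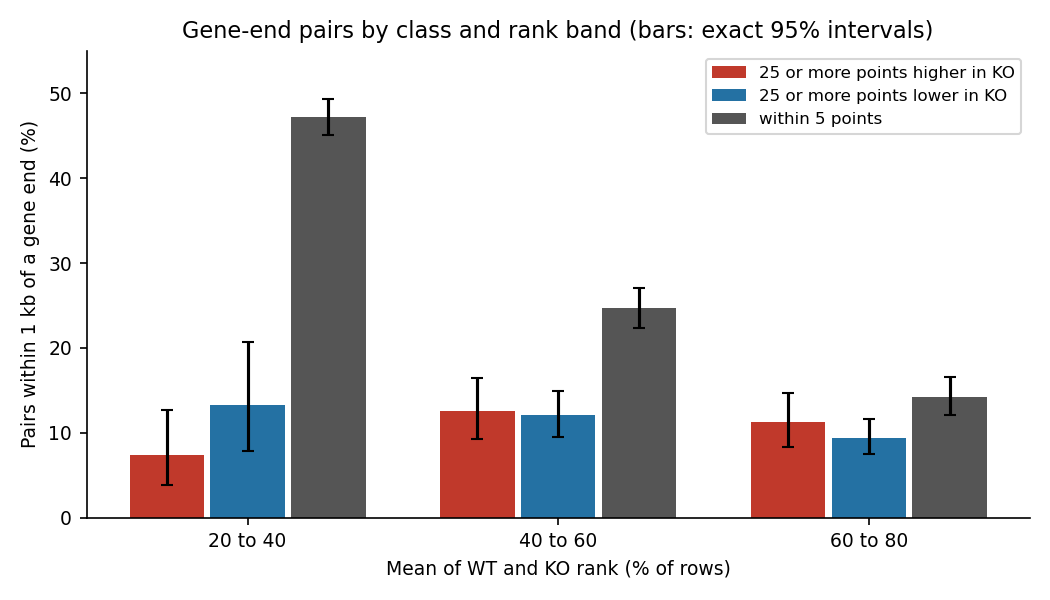
Share of shared pairs within 1 kb of a protein-coding gene's end (y axis, percent) by band of mean rank (x axis) for members, pairs lower in KO and pairs within 5 points, with exact 95% intervals. In the bands 20 to 40 and 40 to 60 members (7.45% and 12.5%) stand below pairs within 5 points (47.2% and 24.7%), and in the band 60 to 80 the intervals overlap.

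The promoter table allowed a look at sequence for the 62 members that overlapped a promoter, given there as 250 bases before to 50 after a transcription start. They were 6.26% of members (4.83 to 7.96%), against 25.8% of all pairs. At mean ranks 20 to 40 the share was 6.83% of members and 31.2% of other pairs. It was 4.56% and 13.0% at 40 to 60, and 7.58% and 5.95% at 60 to 80. The 68 promoter windows of the 62 members belong to 65 gene symbols. The median GC content of these windows was 58.7%, against 62.3% for the 8410 windows under any shared pair, 61.0% for the 1124 windows under other pairs of mean rank 40 to 80, and 53.0% for all 31396 windows. The median number of CpG dinucleotides per window was 14.5, below the 23 and 19 of the windows under shared pairs and above the 7 of all windows. Pairs lower in KO had a median GC content of 59.2% and a median of 14 CpG, near to the members.

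Each of 21 short motifs was searched on both strands of these windows, and a match is a description of letters, not of binding. ATAC-seq does not show which protein sits at a site. Windows under 1 pair can overlap, as at Gm41331, so a match can count more than once, and the intervals do not allow for this. The RUNX motif TGTGGTT was in 7 of 68 member windows (10.3%, 4.24 to 20.1%), in 3.74% of windows under other pairs of mean rank 40 to 80 (2.71 to 5.02%), and in 5.32% of all windows. The AP-1 motif TGANTCA was in 9 (13.2%, 6.23 to 23.6%), against 5.69% and 7.84%. For the STAT motif TTCNNNGAA the number was 11 (16.2%, 8.36 to 27.1%), against 6.94% and 8.35%. TGACCA, a sequence bound by BCL11A, the close relative of BCL11B, was in 17 (15.3 to 37.0%), against 12.3% and 13.7%. These counts take in the whole window, whether or not a match lay under the peaks. Among the bases before the transcription start, TGACCA lay under both peaks only at Bfsp2, Gm41331, Prkar2a and Hspg2. Its share under the peaks was not compared with that of other pairs. TGACCA has 6 letters, and it can overlap other motifs.

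The direction varied among the other motifs. The ETS motif of housekeeping promoters, CCGGAAG, was in 3 windows (4.41%, 0.919 to 12.4%), against 16.3% of windows under other pairs of mean rank 40 to 80 (14.2 to 18.6%). The other ETS form searched, AGGAAGT, was in 12 (17.6%, 9.46 to 28.8%), against 11.7%. The E-box CACCTG was in 8 (11.8%, 5.22 to 21.9%), against 25.6% (23.1 to 28.3%), and the T-box motif AGGTGTG in 3, against 5.16%. The forkhead motif TGTTTAC was in 3 (4.41%, against 2.22%), the IRF motif in 3 (4.41%, against 2.94%) and the TCF/LEF motif ATCAAAG in 2 (2.94%, against 1.60%), and the members' intervals held those shares. Pairs lower in KO had 7.94% with TGACCA, 3.17% with TGTGGTT and 5.56% with CCGGAAG, over 126 windows. No test was made over the 21 motifs. In the printed sequences, matches to the RUNX motif lay before Gzmb, Gzma and Havcr2, and those before Gzma and Havcr2 lay under both peaks. Gzmb and Havcr2 also had a match to the AP-1 motif, and Gzmb 1 to TGACCA, outside the capitals. Matches to the STAT motif lay before Serpina3g, in the capitals, and before Il12rb2, outside them.

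The list of cytotoxic, NK and innate lymphoid genes had 9 members among its 55 shared pairs (16.4%, 7.77 to 28.8%), beside 3.71% over all protein-coding genes, and 2 pairs lower in KO. These members were spread over 6 of the list's 14 genes with a shared pair, and the pairs lower in KO were at Fasl and Id2. Each pair was given to the protein-coding gene around its middle or, failing that, to the nearest one within 100 kb, and a site may act on another gene. The median difference over all 55 pairs was -1.82, beside -2.45 over all genes, so most pairs at these genes did not differ in the members' direction. The lists were chosen with earlier results of these data known, and the count is a description. Over all shared pairs, members were 161 of 6188 at mean ranks 20 to 40. They were 351 of 5729 at 40 to 60 and 409 of 5216 at 60 to 80. The shares of the lists and of all genes were not matched for rank.

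Gzmb on chromosome 14 had 3 members among 6 shared pairs. The pair at its promoter (KO peak 56262180 to 56262372) stood at rank 94.3 in WT and 38.2 in KO. The other members lay 22.3 and 25.6 kb from the gene, at 55.8 and 22.2 and at 84.0 and 45.4. The remaining pairs of Gzmb differed by -11.1 to 0.23 points. Gzmk, another granzyme gene, had no shared pair other than its 2 members, 1.21 kb (72.1 and 42.2) and 2.55 kb (63.9 and 29.3) from its ends. The pair at the Gzma promoter (82.8 and 42.8) was given to Cdc20b, the gene in which Gzma lies, and is not in the list's count.

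Ccl5, a chemokine gene of cytotoxic and memory T cells, had 1 shared pair, a member 19.9 kb away (71.2 and 24.6). The NK receptor genes Klrc1, encoding NKG2A, and Klrk1, encoding NKG2D, also had 1 shared pair each, both members. The pair in the body of Klrc1 stood at 82.3 and 42.0, and Klrc1 has near-identical neighbours, so its peak is uncertain. The pair 1.73 kb from Klrk1 (63.7 and 29.9) overlapped by only 38 bp and was no longer paired when an overlap of 50% was asked for. Nfil3, a factor of NK cell development, had 1 member 15.9 kb away (44.6 and 16.1). Defining markers of NK and CD8 cells held 0 members: Ncr1 and Cd8a had no shared pair, and the 4 pairs of Eomes, the 4 of Klrb1c and the pair of Cd8b1 were all below the limit.

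**Figure D3:**
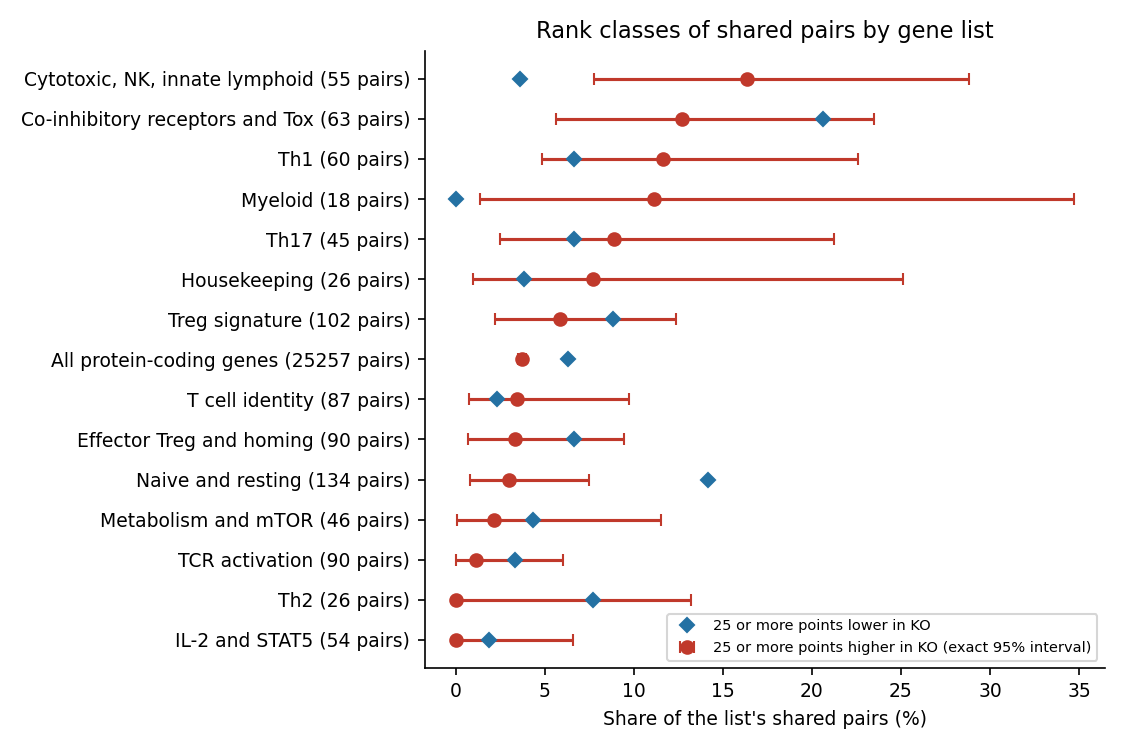
Share of each gene list's shared pairs (x axis, percent) that were members (circles, exact 95% intervals) or lower in KO (diamonds), with the number of pairs per list on the y axis and lists under 18 pairs left out. Cytotoxic, NK and innate lymphoid genes stand at 16.4% and 3.64%, naive and resting genes at 2.99% and 14.2%, and all protein-coding genes at 3.71% and 6.28%.

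Th1 and Th17 genes had members at effector loci, and both lists also had pairs lower in KO. Th1 genes had 7 members among 60 pairs (11.7%, 4.82 to 22.6%), beside 3.71% over all protein-coding genes. They had 4 pairs lower in KO, at Havcr2, Ifngr1, Irf1 and Stat4, and a median difference of 2.51. Of the Th1 members 2 were at Havcr2, which is also in the co-inhibitory list. Runx3, which acts in Th1 differentiation and in CD8 T cells, had 8 shared pairs that all stood earlier in KO, by 1.64 to 61.6 points. Its 2 members lay 21.9 kb (89.4 and 27.9) and 17.8 kb (73.4 and 44.2) below the gene, the former with an overlap of 69 bp. The promoter pair of Il12rb2 stood at 47.4 and 18.9. Ifng, the signature cytokine gene of Th1 cells, had 1 member, 24.8 kb away (68.9 and 32.5), among 8 pairs with a median difference of -6.08. Ifngr1, a chain of the receptor for that cytokine, had 1 member and 1 pair lower in KO among 9 pairs.

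Il17a, the signature cytokine gene of Th17 cells on chromosome 1, had 2 shared pairs, both members with large differences. They lay 6.23 kb (KO peak 20740629 to 20740821, at 79.7 and 19.999) and 9.55 kb (20743962 to 20744154, at 93.2 and 26.5) from the gene. In the Th17 list as a whole there were 4 members among 45 pairs (8.89%, 2.48 to 21.2%). This interval holds the 3.71% over all protein-coding genes, and the median difference of the list was -4.97. The other members were 1 of 5 pairs at Maf (97.9 and 68.2) and 1 of 4 at Stat3, a cytokine signal transducer (92.7 and 67.5). The member at Stat3 was lost both with ranks among paired peaks and with an overlap of 50%. The Th17 list also had 3 pairs lower in KO (6.67%), at Ahr, Il21 and Rora, beside 6.28% over all protein-coding genes. Th2 genes had 0 members among 26 pairs, which allows a share of up to 13.2% (upper exact bound).

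Genes of co-inhibitory receptors and Tox factors had both many members and many pairs lower in KO. Members were 8 of 63 pairs (12.7%, 5.65 to 23.5%), and 13 pairs were lower in KO (20.6%). Over all protein-coding genes the shares were 3.71% and 6.28%. With a limit of 35 points, where all members numbered 416, this list had 2. Havcr2 held members at its promoter (89.9 and 50.6) and in its body (65.2 and 33.6), and its remaining pair, also in the body, stood at 70.4 and 96.9. Lag3, an inhibitory receptor that binds MHC class II, had 2 members among 3 pairs, in its body (90.9 and 49.7) and 3.13 kb away (28.2 and 2.74). The former moved from the end of the WT list to the middle of the KO list, and the latter was early in both. Tox2 had 2 members among 3 pairs, whereas Tox, a factor of exhausted T cells, had 1 member and 4 pairs lower in KO among 16. A Tox2 member overlapped by 28 bp only, and with an overlap of 50% Tox2 had 1 member. Tigit had 1 member among 5 pairs (40.9 and 12.03).

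**Figure D4:**
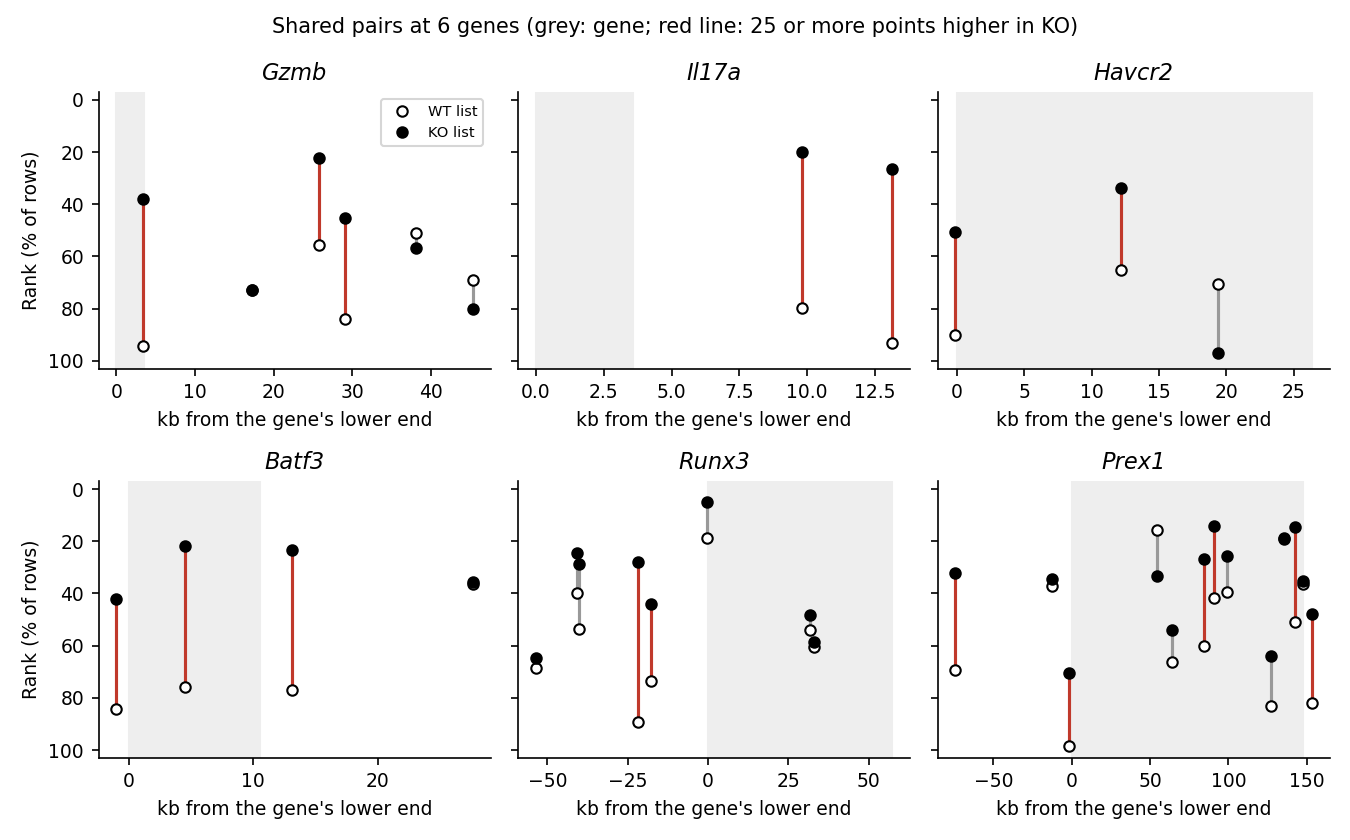
Ranks of every shared pair at Gzmb, Il17a, Havcr2, Batf3, Runx3 and Prex1 in the WT list (open circles) and the KO list (filled circles), on an axis from 0 (first row) at the top to 100, against distance in kb from the gene's lower end. Red lines join members, grey areas mark the genes, and members and non-members stand side by side at all but Il17a, which has no other shared pair.

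Treg genes had members at Il10, Lag3, Entpd1 and Nrp1 and none at the genes that define the lineage. The Treg signature list had 6 members among 102 pairs (5.88%, 2.19 to 12.4%) and 9 pairs lower in KO. The interval holds the 3.71% of members over all protein-coding genes. Il10, an inhibitory cytokine gene, had 2 members among 5 pairs, in its body (41.8 and 10.2) and 13.4 kb away (88.0 and 62.5). The latter overlapped by 64 bp. Il10 had 1 member with an overlap of 50%, and 1 with ranks among paired peaks. Entpd1, the ectonucleotidase CD39, had 1 member in its body (46.2 and 14.6) and 1 pair lower in KO. Nrp1, a surface receptor of thymus-derived Treg cells, also had 1 of each. Ctla4, an inhibitory receptor gene, had 0 members and 2 pairs lower in KO among 11, and Ikzf2, encoding Helios, 0 and 1 among 10. The 4 pairs of Il2ra, the IL-2 receptor alpha chain, differed by -2.50 to 3.41 points. The pair inside Foxp3, on chromosome X and so outside the rule, stood at 12.1 and 11.1. Of effector Treg and homing genes, 3 of 90 pairs were members (3.33%), near the share over all genes. Among them was a pair at an end of Klrg1, a receptor of terminally differentiated cells (94.99 and 51.4).

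In the list of naive and resting genes, members were few beside pairs lower in KO. Members numbered 4 of 134 pairs (2.99%, 0.819 to 7.47%), and 19 pairs (14.2%) at 8 genes were lower in KO. Over all protein-coding genes the shares were 3.71% and 6.28%. S1pr1, whose receptor lets T cells leave lymph nodes, had 2 members (47.4 and 18.5, 57.5 and 29.9) among 13 pairs. Bach2, a repressor that keeps T cells from effector differentiation, had 1 member and 3 pairs lower in KO among 22. Foxp1, which helps to keep T cells quiescent, had 1 member, lost with an overlap of 50%, and 6 lower among 23. On the scale of paired peaks alone this list had 9 members.

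The Runx family had members at each gene, and T cell identity genes had a share of members near that of all genes. No list was made of the Runx family. Its genes were each named because they had members and are grouped here, after their values were seen, as a description. The family's share of members was not computed. Runx1, a factor of T cell development, had 2 members among 12 pairs, 41.4 kb away (64.7 and 10.7) and in its body (82.9 and 38.2), and 10 of its 12 pairs stood earlier in KO. Runx2, best known from bone and also active in T cells, had 3 members in its body with differences of 34.1 to 42.9, and 1 pair lower in KO, but only 4 of its 10 pairs stood earlier in KO (median difference -0.73). Cd247, the CD3 zeta chain of the T cell receptor, had a member in its body (49.6 and 2.98) that stood among the first rows of the KO list. The T cell identity list, with Runx1 in it, had 3 members among 87 pairs (3.45%, 0.717 to 9.75%), beside 3.71% over all protein-coding genes. Of T cell receptor activation genes, 1 of 90 pairs was a member, 43.3 kb from Fos. IL-2 and STAT5 genes had 0 of 54, which allows up to 6.60% (upper exact bound).

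Among lists for other cells, myeloid genes had 2 members among 18 pairs (11.1%, 1.38 to 34.7%), a share near that of Th1 genes, and 0 pairs lower in KO. Both members were about 70 kb from Cebpb and late in both lists. The median difference over the 18 myeloid pairs was 7.15, higher than in the other lists, and 10 of the 18 were at Cebpb. At the myeloid genes lay 10 KO-only against 5 WT-only peaks. Cytotoxic genes had 39 against 20 and Th1 genes 32 against 20, while naive and resting genes had 38 against 75. Over all protein-coding genes there were 8515 KO-only against 10254 WT-only peaks. B cell genes had 0 of 12, erythroid genes 0 of 4 and CD8 genes 0 of 1. Metabolism and mTOR genes had 1 of 46, in the body of Mtor, and this pair was no longer a member on the scale of paired peaks alone. Housekeeping genes had 2 of 26 (7.69%, 0.946 to 25.1%), near Tbp (95.7 and 54.5) and Ywhaz. The intervals of the myeloid and housekeeping lists hold the 3.71% over all protein-coding genes. Of defining markers, the B cell genes Ms4a1, Cd79a and Cd79b and the myeloid genes Csf1r and Lyz2 had no shared pair, though Cd79b had 1 KO-only and Lyz2 1 WT-only peak. The myeloid marker Cd14 and the erythroid marker Klf1 had 1 shared pair each, with differences of -4.03 and -16.2. The part that other cells in the sort could have in these ranks was not tested.

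Members were spread over 824 protein-coding genes, 724 of which had 1 member, and 100 genes had more. The gene with most was Prex1 on chromosome 2, which encodes a guanine nucleotide exchange factor for Rac, with 6 members among 13 pairs and 0 lower in KO. In 3 of these members the peaks overlapped by 45 to 71 bp, and with an overlap of 50% Prex1 had 3 members, as many as Batf3, B4galt5 and Gzmb. Its members stood at KO ranks of 14.2 to 70.3 and differed by 27.5 to 37.2, 3 of them in the gene body. Of its 13 pairs, 11 stood earlier in KO, and the strongest exception was a pair at 15.6 and 33.3. Batf3, an AP-1 factor of dendritic cells that is also induced in activated T cells, had 3 members among 4 pairs, 0.979 kb before its lower end (84.4 and 42.2), in the body (75.9 and 21.9) and 2.59 kb beyond it (76.9 and 23.5). The fourth pair of Batf3, farther off, differed by 0.77.

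The other genes with 3 members were B4galt5, Ugcg, Septin9, Ifrd1, Lrrc28 and Wwp2, besides Gzmb and Runx2. B4galt5 and Ugcg encode enzymes that make lactosylceramide and glucosylceramide, the first steps of glycosphingolipid synthesis. B4galt5 had differences of 42.1 to 55.4 at its members, and Ugcg of 30.3 to 51.7 beside 1 pair lower in KO. An Ugcg pair overlapped by 9 bp only. Septin9, a septin of the cytoskeleton, had 2 members about 1 kb apart in its body (61.2 and 13.1, 58.8 and 29.3) and another farther on. Ifrd1, a transcriptional co-regulator gene, had its 3 members 20.8 to 30.2 kb away, within 10 kb of each other. Wwp2, a ubiquitin ligase gene, had its members up to 20 kb from one of its ends, and Lrrc28 had them 12.8 to 61.8 kb away.

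Some members lay close together. Within 50 kb of another member stood 219 of 990 (22.1%). Of the 2746 other shared pairs within 50 kb of a member, 7.98% were members and 4.37% lower in KO, against 3.75% and 6.53% of all pairs. The non-members among them had a median difference of -0.96, beside -2.52 for all pairs. Around pairs lower in KO the shares turned, with 10.7% lower and 2.79% higher in KO. These ranks come from the contrast that chose the members and are given as a description.

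The stretch of 1 Mb with most members was on chromosome 2 and held 10 among 32 pairs (31.2%), including those of Prex1 and B4galt5. Stretches on chromosomes 6, 10, 11 and 12 held 6 each, with the highest share on chromosome 12 (35.3%). The latter surrounds Bcl11b (107910403 to 108004145), the targeted gene, and was noticed after the windows were ranked. It held its 6 members among 17 pairs, with 0 lower in KO. The 4 pairs within Bcl11b differed by -10.6 to 6.39 points and held 0 members. Members stood 140, 158 and 176 kb below it, in a region with no protein-coding gene within 100 kb. The one at 158 kb (KO peak 107752756 to 107752948) was at 78.5 in WT and 28.7 in KO, and that at 140 kb (107770607 to 107770799) at 60.6 and 19.8. Above the gene, members lay 94.3 kb away, near Setd3 (95.5 and 56.7), and in the body of Eml1, 446 and 448 kb away (60.6 and 33.2, 83.9 and 29.8). Within 500 kb below Bcl11b, 7 of 12 pairs stood earlier in KO, and above it 5 of 6.

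Peaks called in one genotype alone were also counted around the members. Within 50 kb of a member lay on average 1.33 KO-only and 1.08 WT-only peaks. Around pairs lower in KO the means were 0.784 and 1.25, and around pairs within 5 points 0.953 and 1.07. More KO-only than WT-only neighbours stood around 386 members (39.0%), and the reverse around 278 (28.1%). For all shared pairs these shares were 26.4% and 35.8%. Both measures come from the same 2 lists, so the neighbours are no independent support of the ranks.

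**Figure D5:**
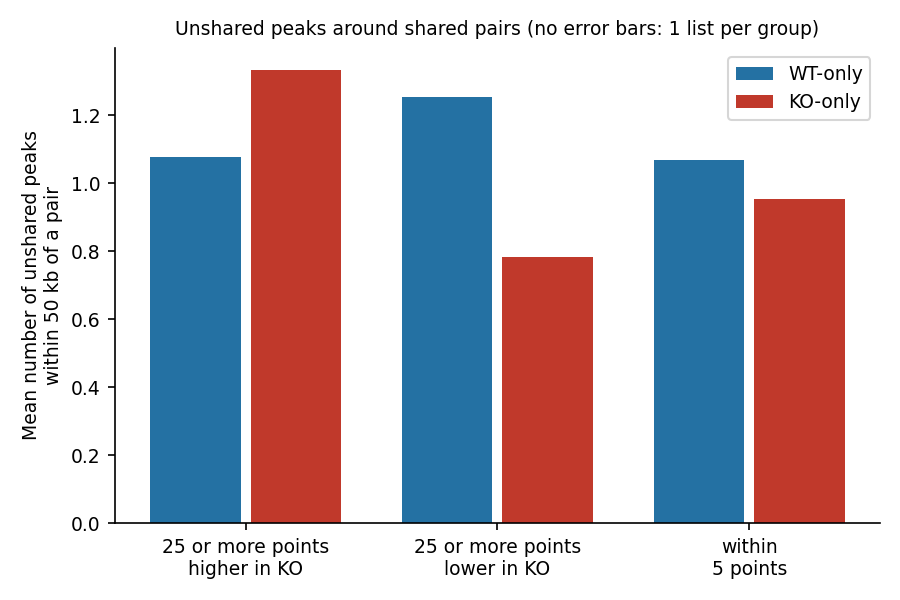
Mean number of WT-only (blue) and KO-only (red) peaks within 50 kb (y axis) around members, pairs lower in KO and pairs within 5 points. Members have 1.33 KO-only and 1.08 WT-only peaks, and pairs lower in KO have 0.784 and 1.25.

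The peaks of members coincided slightly less than those of other pairs. The median overlap was 166 bp for members, 170 bp for pairs lower in KO and 178 bp for pairs within 5 points, where nearly all peaks are 219 bp wide in WT and 193 bp in KO. The median distance between the middles of the peaks was 40, 36 and 28 bp. By chromosome, the share of pairs that were members ran from 2.62% on chromosome 3 (1.85 to 3.60%) to 5.01% on chromosome 15 (3.81 to 6.46%). It was 4.82% on chromosome 11 (3.85 to 5.95%), 4.81% on chromosome 19 (3.39 to 6.60%) and 4.76% on chromosome 6 (3.73 to 5.96%). The intervals of chromosomes 19 and 6 hold the 3.75% of all pairs.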

How the data were processed

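The deposited files are 2 lists of ATAC-seq peaks, 1 for the 3 WT and 1 for the 3 KO samples, with a start and an end per peak and a score that the authors deposited as 1 in every row. Per the submitters' processing notes, the tools were HISAT2 2.1.0, HOMER 4.10.1, SAMtools 1.3 and deepTools, with Trim Galore 0.4.2, FastQC and cutadapt 1.12, on build mm10. What each did, how peaks were called, whether reads were shifted for the transposase and how samples were joined is not given in the sources used here. Peak names are numbered within a chromosome, and the row order follows the numbers (Spearman correlation per chromosome, across peaks, at least 0.991). The present rows are 65.2% and 70.6% of the sum of highest numbers. Nothing says that the samples are separate animals.

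Pairs were formed, ranked and annotated with pandas 2.3.3 under Python 3.11.15 (scipy 1.17.1 for intervals, numpy 2.4.6), and drawn with matplotlib 3.10.9. Where several peaks overlapped, 1 pair per peak was kept (26368 overlaps, 26367 pairs). Overlaps were tested on 2000 simulated peaks against bedtools 2.31.1, with 0 differences, and all 200 simulated shifts of rank were found. Genes came from a RefSeq table of GRCm38.p6 (21887 protein-coding genes). No genome was used, so sequence was read from the promoter table alone, and sequences of distal members are not analysed here. Intervals are exact Clopper-Pearson 95% intervals and cover counting error only. The design had planned to search motifs in whole peaks, and promoters took their place. Named are the 12 largest differences, the 10 genes with most members, up to 5 genes with members per list, 6 fixed genes and the 3 pairs on each side of the limit. The members, the 17 gene lists (2 of 249 genes not found) and the tests were chosen with earlier results of these data known. Alternatives were other limits, overlaps, rank scales, windows and gene assignments.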

Additional observations from a re-analysis of the deposited data

How the results depend on the processing

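No paired analysis was possible because the lists hold no value per sample, and no sample could be left out for the same reason. The number of members moved from 990 to 2300 with a limit of 15 points, to 416 with 35 points and to 444 in the first 75% of each list, by construction. It was 853 to 1319 with an overlap of 50%, with ranks among paired peaks, within chromosomes or from the peak numbers, or with differences of row numbers, and 853 to 990 of the members remained. The share at gene ends (10.7%) was 12.9% with 15 points, 7.88% with a window of 500 bp and 14.9% with 2 kb, where other pairs stood at 30.8% and 40.1%. The share in gene bodies (48.8%) was 53.1% with 35 points. Members with more KO-only neighbours were 21.6% within 10 kb and 43.9% within 100 kb, always above the share with more WT-only ones (14.0% and 33.9%). Members at listed genes numbered 44, and 24 with genes within 10 kb only. With limits chosen after seeing the data they were 92 at 15 points and 16 at 35. Of 52 named genes with members, 50 kept a member with ranks among paired peaks, 50 with the nearest gene end, 48 with an overlap of 50%, 34 within 10 kb and 33 at 35 points. Cytotoxic genes had 12 members with ranks among paired peaks and 5 within 10 kb. The window of 200 bp in the genome was not run, since no genome was used. Row order without peak heights limits every rank.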

Other observations

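Members at genes of the oxidative stress response were noticed after their values were seen. The pair with the largest difference lay 58.8 kb from Nfe2l2, whose product NRF2 activates antioxidant genes. Promoter pairs were members at 2 genes known as NRF2 targets, Nqo1 (95.2 in WT and 64.3 in KO) and Srxn1, encoding sulfiredoxin (41.2 and 13.6), and at the metallothionein gene Mt1 (70.3 and 23.3). Other known NRF2 targets did not follow. Hmox1 had 2 pairs with differences of 0.25 and 21.5, and the 6 pairs of Txnrd1 and the 4 pairs of Gclc held 0 members, with medians of -2.34 and -5.14. Gclm had no shared pair.

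Promoter pairs at genes outside the lists were also members at Pparg, a nuclear receptor of tissue Treg cells (99.4 and 72.4, overlap 69 bp), at Lilr4b, an inhibitory receptor of the gp49 family (76.4 and 43.9), and at Clnk, an adaptor of the SLP-76 family (90.8 and 41.7). The pair at Pparg stood late in both lists. Acod1, which encodes the enzyme that makes itaconate in macrophages, had 2 members among 4 pairs, in its body (55.3 and 17.2) and 13.4 kb away (52.4 and 27.4). On chromosome X, outside the rule, 6 of 586 shared pairs (1.02%, exact 95% interval 0.377 to 2.22%) were 25 or more points higher in KO and 67 (11.4%, 8.97 to 14.3%) lower.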
